A study of Mus musculus with 25 samples.

Results

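Livers of old mice joined for 5 weeks to any young partner were compared with livers of old mice joined to another old mouse. Of the 25 livers in the study, 15 entered the comparison, and they were chosen by their labels alone: 5 old livers with a young wild-type (WT) partner, 5 old livers with a young partner heterozygous for Manf (Het), and 5 old livers with an old partner (O-O). All 15 old mice were C57BL/6, WT and 21 months old; both kinds of young partner were C57BL/6 and 5 months old, and 10 of their livers were sequenced as well. These 10 young livers were in the same statistical model and shared its estimate of the spread. Every animal was joined to a partner, so no liver without surgery is part of the comparison. The labels give neither the sex of the mice nor whether animals with the same number belong to 1 pair, and 2 O-O livers could come from 1 pair.

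In parabiosis the skin and vessels of a pair of mice grow together, so that blood cells and plasma proteins of each animal reach the other. The liver takes up much of what circulates: hepatocytes make cholesterol, plasma proteins and bile acids, while Kupffer cells, sinusoidal endothelium, stellate cells and passing lymphocytes make up most of the remaining tissue. Manf is a secreted protein of the endoplasmic reticulum that is induced when protein folding is disturbed. In whole tissue, fewer cells of a type and less RNA per cell cannot be told apart.

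Levels are the deposited RPKM, reads per kilobase of gene model and per megaread of the library, given as mean ± SD of 5 livers. Differences are of log2(RPKM + 0.5), given ± SE from limma, a scale on which weakly expressed genes appear to change less than they do. The response to any young partner is the average of the means of both partner groups minus the O-O mean, and a gene passed when its limma p adjusted by Benjamini-Hochberg over 9372 tested genes was under 0.05. Between 21.8 and 27.6 megareads lay behind the scaling of each library, with 22.8 to 24.2 in O-O, 24.3 to 26.9 with WT partners and 21.8 to 27.6 with Het partners. Libraries of a group correlated at 0.981 to 0.995 across genes. Several libraries stood apart from their group: O-O 4 was high in immune cell transcripts, O-O 2 and WT partner liver 2 (livers are numbered as in the labels) lay apart from their groups in Mup, immune and collagen genes, and Het partner liver 4 was low in Kupffer cell transcripts. Summed hepatocyte markers spanned 45273 to 60477 RPKM in O-O, 36048 to 62566 with WT partners and 50856 to 81180 with Het partners, so the labelled tissue and its defining transcripts matched.

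Manf itself gave 9.64, 9.89, 12.1, 5.90 and 6.72 RPKM in the O-O livers, 17.4, 17.8, 13.7, 20.3 and 18.9 with WT partners, and 8.35, 6.52, 4.96, 6.24 and 9.52 with Het partners. All 5 livers with WT partners lay above the O-O range, and 1 of the 5 with Het partners lay below it. The share of tested genes with all 5 livers of 1 partner group outside the O-O range was not counted. The averaged difference of 0.35 ± 0.20 did not pass (limma adjusted p = 0.292, exact two-sided permutation of 10 against 5 livers p = 0.334). The partner groups had opposite directions. With WT partners Manf rose by 0.99 (limma adjusted p = 0.0355), and with Het partners it differed by -0.29 without passing (limma adjusted p = 0.361). All old mice carried WT Manf, so the gene does not check a genotype here.

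With any young partner, the genes that rose in the old liver included 9 of 24 tested genes of cholesterol synthesis and uptake and 4 major urinary protein (Mup) genes. Those that fell included 3 of 4 tested B and plasma cell markers, out of 16 listed. Also lower were 6 of 35 interferon-stimulated genes and 6 of 19 collagen and matrix genes. Most members of these last 2 lists did not pass. Of the 9372 tested genes, 222 passed in the averaged comparison (2.37%), 19 higher (0.203%) and 203 lower (2.17%). The genes that rose had a median difference of 1.18 (0.48 to 2.75), and those that fell a median of -0.47 (-1.64 to -0.20). Both partner groups had the same direction for 220 of the 222 genes, 18 higher and 202 lower, and opposite directions for Arntl and Per3. The partner comparisons share the 5 O-O livers and make up the average, so a shared direction is partly built in. Over all tested genes, 1005 were higher and 4166 lower with both partners, and 4201 had opposite directions.

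The share of each partner in the average was unequal. Against O-O, 110 genes passed with WT partners (1.17%; 0.747% higher, 0.427% lower) and 2211 with Het partners (23.6%; 0.907% higher, 22.7% lower). After scaling by median of ratios, 935 passed with Het partners (9.98%), 331 higher (3.53%) and 604 lower (6.44%), so most of the excess of lower calls was not kept. Of the 222 genes, 213 passed with Het partners, 15 with WT partners, and 8 with both: Mup11 and Tlcd2 higher, Etv5, Sulf2, Il1rn, Amdhd2, Vps26a and Ankrd16 lower. The difference was larger with Het partners for 193 of the 222. Tested directly, Het and WT partners differed for 115 of the 222 (3065 of all tested genes, 32.7%; 3.07% higher and 29.6% lower with Het partners). After scaling, 1730 genes differed (18.5%), nearly evenly split into 837 higher (8.93%) and 893 lower (9.53%) with Het partners.

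**Figure D1:**
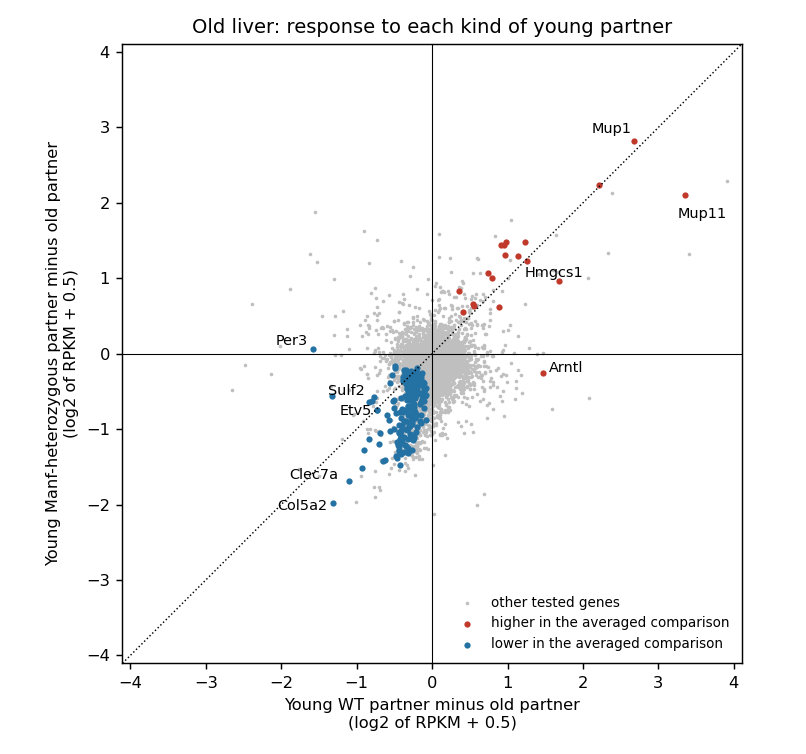
Difference of the old liver from O-O on the log2(RPKM + 0.5) scale with young WT partners (x axis) and with young Het partners (y axis), 1 point a gene; red and blue points are the 19 and 203 genes that passed in the averaged comparison, and the dotted line marks equal differences. Most blue points lie below the dotted line, and Arntl and Per3 are the coloured points where the signs differ.

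These calls sat close to the threshold. The lowest adjusted p was 0.0061 (Etv5), the next 0.034 and the highest 0.0495; after median-of-ratios scaling, which moved the median averaged difference of all genes from -0.074 to 0.001, Etv5 alone passed, all 222 kept their sign, and 183 had an adjusted p under 0.1. Leaving out 1 library at a time gave 0 to 801 calls: 0 without O-O 1 or O-O 4 (limma; 1982 and 1320 genes at an unadjusted p under 0.05), 1 or 2 without O-O 5, WT partner livers 3, 4 or 5, or Het partner liver 4, 13, 33 and 74 without Het partner liver 3, WT partner liver 1 and Het partner liver 2, 447 without Het partner liver 5, and 801 and 710 without O-O 2 and without WT partner liver 2. Each call described here carries this dependence. Over all tested genes, an unadjusted p under 0.05 was reached by 23.2% in the average (18.6% after scaling), 16.0% with WT partners and 38.8% with Het partners; the unadjusted counts given for single lists are to be read against these shares.

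The genes of cholesterol synthesis and uptake formed the largest group that rose. Of 24 tested members, 9 rose, none fell (0 of 24) and 15 did not pass. The median difference was 0.60 against -0.074 over all genes, and 23 of the 24 were higher with both kinds of partner. With Het partners 17 members passed, with WT partners 0 (limma; 12 of the 24 at an unadjusted p under 0.05). The direct comparison of Het with WT partners passed for 4. After scaling, 0 of 24 passed in the average (23 at an unadjusted p under 0.05), and single omissions gave 0 to 16 calls.

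Hmgcs1 makes the HMG-CoA from which the pathway starts and lies at chr13:119690379-119708260 on the plus strand (mm10, GENCODE M21). It was 31.0, 31.2, 18.1, 31.4 and 25.6 RPKM in O-O, 41.2, 33.7, 91.8, 106 and 55.5 with WT partners, and 39.2, 149, 61.0, 60.8 and 62.1 with Het partners. All 10 livers with a young partner lay above all 5 O-O livers; 1 of the tested genes did so (0.0107%). The averaged difference was 1.22 ± 0.30 (limma adjusted p = 0.0452), from 1.13 with WT and 1.30 with Het partners.

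The promoter of Hmgcs1 is shown because the gene was the member whose groups did not overlap, and because sterol-regulated genes carry sterol regulatory elements. Its RefSeq window (GRCm38.p6, chr13:119690101-119690400, plus strand, 250 bases before to 50 after the start) holds 1 match, in capitals, to the letters TCACNCCAC, searched on both strands.
Hmgcs1: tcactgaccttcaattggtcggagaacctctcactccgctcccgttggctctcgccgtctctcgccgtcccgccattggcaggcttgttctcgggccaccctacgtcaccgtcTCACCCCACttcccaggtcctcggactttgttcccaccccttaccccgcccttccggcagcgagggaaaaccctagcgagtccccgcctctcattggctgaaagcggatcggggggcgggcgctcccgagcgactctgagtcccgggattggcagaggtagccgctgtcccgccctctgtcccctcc
The match starts at -137. Of 17 tested cholesterol genes with a window, 1 held these letters (5.9%), against 1.4% of 27025 genes with a window, so the other 16 hold no match in these windows.

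Mvd, mevalonate diphosphate decarboxylase, was 4.11, 3.92, 1.53, 2.97 and 2.47 RPKM in O-O, 5.16, 2.94, 12.1, 12.9 and 8.73 with WT partners, and 6.57, 17.1, 9.08, 6.75 and 8 with Het partners. WT partner liver 2 lay inside the O-O range, and the other 9 lay above it. The difference was 1.36 ± 0.30 (limma adjusted p = 0.0412). Cyp51, lanosterol demethylase, was 12.7 ± 3.68 in O-O, 24.7 ± 9.32 with WT and 34.6 ± 8.90 with Het partners (1.18 ± 0.26, limma adjusted p = 0.0412), again with 9 of 10 livers above the O-O range. For this and later genes, the share of tested genes with 9 of 10 livers outside the O-O range was not counted.

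Idi1, isopentenyl diphosphate isomerase, went from 6.58 ± 2.44 RPKM in O-O to 13.9 ± 6.79 and 18.9 ± 7.67. Nsdhl, which removes methyl groups from sterols, went from 10.8 ± 3.98 to 21.6 ± 9.74 and 28.4 ± 6.01. Pmvk, phosphomevalonate kinase, went from 17.3 ± 4.67 to 31.7 ± 13.7 and 34.0 ± 5.27. The remaining 3 genes that rose did so by less: Acat2 by 0.59, Tm7sf2 by 0.59 and Hsd17b7 by 0.60 on the log2 scale. Tm7sf2 was the member of the 9 whose Het and WT partner groups differed (0.47, limma adjusted p = 0.0468).

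Of the fatty acid synthesis genes, 0 of 20 tested members passed in the average (7 at an unadjusted p under 0.05), with a median of 0.37, and 6 passed with Het partners. Acacb, acetyl-CoA carboxylase beta, was 3.89 ± 2.76, 7.90 ± 4.34 and 8.89 ± 4.45 RPKM (limma adjusted p = 0.0824). Elovl6, a fatty acid elongase, was 8.41 ± 4.41, 13.4 ± 6.06 and 13.7 ± 2.6 (limma adjusted p = 0.0764).

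Of 25 tested male-biased genes, which growth hormone pulses induce in mouse liver, 5 rose, 0 fell and 20 did not pass, with a median of 0.63. They were Mup1, Mup11, Mup12 and Mup19, which encode urinary pheromone carriers, and Slco1a1, an uptake transporter of the hepatocyte. Mup genes are near-identical copies, so reads may be split among them and the single values are uncertain. Of the 25 male-biased genes, 16 were higher with both kinds of partner and 9 had opposite directions. Their median was 0.94 with WT and 0.38 with Het partners. Tested directly, 6 were lower with Het than with WT partners and 0 were higher. After scaling, 1 was lower and 1 higher. Single omissions gave 0 to 12 calls in this list.

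Mup11 was 12.5, 59.3, 4.04, 2.07 and 1.70 RPKM in O-O, 302, 14.9, 85.6, 94.8 and 58.0 with WT partners, and 12.2, 17.7, 45.7, 50.9 and 52.5 with Het partners. O-O 2 was far above the other O-O livers, and 3 of the 10 livers with a young partner exceeded it. The difference was 2.73 ± 0.66 (limma adjusted p = 0.0445). It passed with WT partners (3.36) and with Het partners (2.10). Single omissions gave an averaged difference of 2.30 to 3.49, highest without O-O 2, and Mup11 passed in 5 of 15. After scaling it no longer passed with Het partners (2.26, limma adjusted p = 0.0629). Mup1 was 4.74 ± 7.04 RPKM in O-O, 30.8 ± 31.8 with WT and 24.5 ± 15.7 with Het partners, a difference of 2.75 ± 0.65 (limma adjusted p = 0.0438).

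Slco1a1 was 14.2, 51.0, 10.7, 12.2 and 30.6 RPKM in O-O, 42.1, 14.7, 44.0, 72.1 and 45.3 with WT partners, and 45.7, 45.9, 38.2, 67.5 and 55 with Het partners. O-O 2 again lay high and WT partner liver 2 low, and the ranges overlapped. The difference was 1.14 ± 0.30 (limma adjusted p = 0.0479). In the young livers Slco1a1 was 77 ± 12.5 (WT) and 68.9 ± 9.40 (Het) RPKM, above both old partner groups in mean.

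The remaining genes that rose were named after their values had been seen, apart from Cyp2c29, a drug-metabolising cytochrome P450. Cyp2c29 was 253 ± 47.2, 334 ± 53.2 and 370 ± 50.4 RPKM (0.48 ± 0.11, limma adjusted p = 0.0438) and was the 1 of 38 xenobiotic genes that passed; other Cyp2c genes are similar enough to share reads. Dio1, the deiodinase that activates thyroid hormone, was 14.1 ± 13.5, 27.3 ± 7.78 and 26.9 ± 8.51. Rdh11, a retinol dehydrogenase, was 8.65 ± 2.30, 15.2 ± 6.15 and 18.4 ± 4.20.

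Tlcd2, which limits membrane fluidity, was 16.7, 17.2, 9.07, 13.2 and 14.4 RPKM in O-O, 25.3, 17.8, 31.2, 31.1 and 26.8 with WT partners, and 14.0, 21.4, 25.5, 20.6 and 28.1 with Het partners. All but 1 of the 10 livers with a young partner lay above the O-O range. It rose by 0.75 ± 0.15 (limma adjusted p = 0.034), and passed with either partner.

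**Figure D2:**
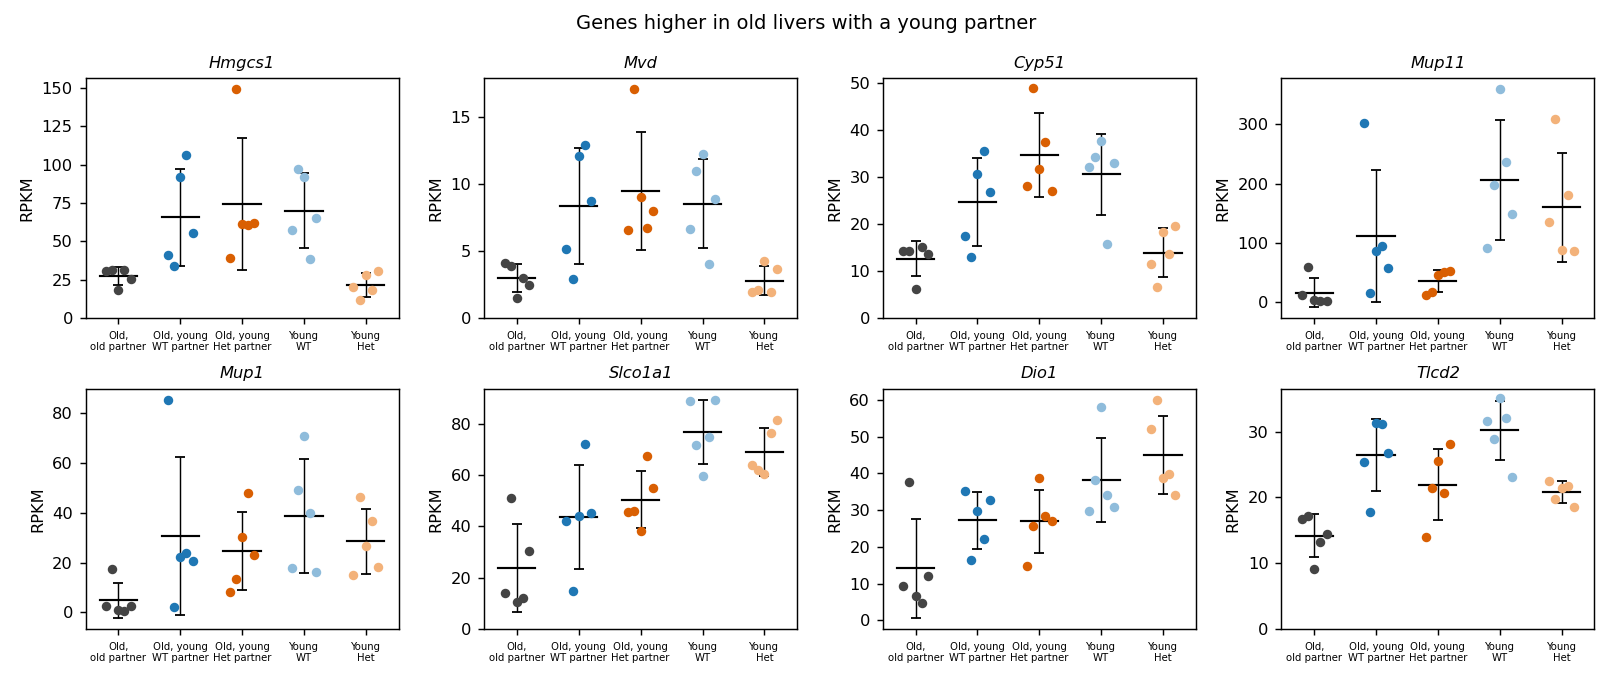
RPKM of 8 genes that rose, by group, 1 point a liver; bars are the mean and SD of 5 livers, and the young livers are shown for reference. For Hmgcs1 all 10 old livers with a young partner lie above the O-O points, and for Mup11, Mup1 and Dio1 the highest O-O point is O-O 2.

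Etv5, an ETS family transcription factor, had the lowest p. It lies at chr16:22381309-22439719 on the minus strand (mm10) and was 1.51, 1.15, 1.12, 1.70 and 1.47 RPKM in O-O, 0.632, 1.03, 0.780, 0.914 and 0.927 with WT partners, and 0.623, 0.663, 0.612, 0.478 and 0.559 with Het partners. All 10 livers with a young partner lay below all 5 O-O livers, as for 26 of the tested genes (0.277%), 15 of which passed. Etv5 met the filter of 1 RPKM in 5 libraries only with the O-O livers counted, which favoured a fall. The difference was -0.63 ± 0.09 (limma adjusted p = 0.0061), and it passed with WT (-0.48) and with Het partners (-0.79), which differed from each other (-0.31, limma adjusted p = 0.0308; 0.139 after scaling). Etv5 passed in 13 of 15 single omissions, with 0.0531 without O-O 1 and 0.0596 without O-O 4. Young livers held 1.00 ± 0.111 (WT) and 1.01 ± 0.274 (Het) RPKM.

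Apart from Il1rn, the genes that fell with both partners, Etv5 included, were named after their values had been seen. Sulf2 encodes a sulfatase that trims heparan sulfate and was 2.57, 1.94, 2.87, 2.69 and 2.45 RPKM in O-O, 1.40, 1.83, 1.02, 1.02 and 1.13 with WT partners, and 1.10, 1.75, 2.05, 1.06 and 1.80 with Het partners. Of the 10, 9 lay below the O-O range (-0.67 ± 0.13, limma adjusted p = 0.034). Il1rn, the antagonist of the interleukin 1 receptor, was 1.25 ± 0.451 in O-O, 0.557 ± 0.331 with WT and 0.521 ± 0.133 with Het partners (-0.74 ± 0.15, limma adjusted p = 0.034).

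Amdhd2, which removes acetyl groups from N-acetylglucosamine phosphate, was 5.68, 5.61, 5.72, 8.02 and 6.77 RPKM in O-O, 4.15, 4.03, 4.72, 4.19 and 4.04 with WT partners, and 4.57, 5.34, 5.49, 4.80 and 5.31 with Het partners, without overlap. Vps26a, a subunit of the retromer that recycles membrane proteins, was 10.7 ± 0.220, 8.78 ± 0.778 and 9.05 ± 0.437. Ankrd16 was 3.41 ± 0.418, 2.50 ± 0.350 and 2.65 ± 0.193. The 10 livers with a young partner lay below the O-O range for these 3 genes. After scaling, Amdhd2, Vps26a and Ankrd16 no longer passed with Het partners (limma adjusted p = 0.328, 0.406 and 0.254).

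**Figure D3:**
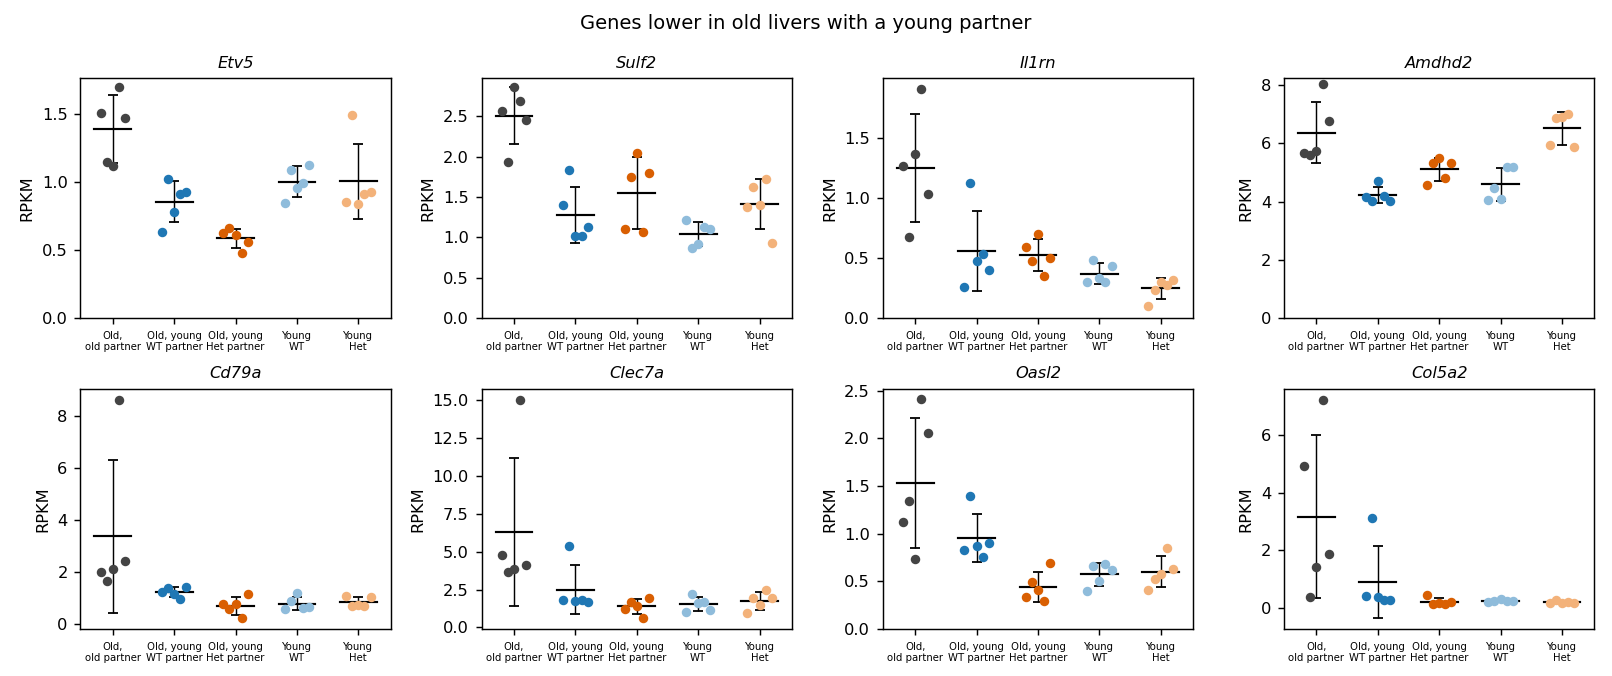
RPKM of 8 genes that fell, by group, 1 point a liver; bars are the mean and SD of 5 livers, and the young livers are shown for reference. The O-O points of Etv5 and Amdhd2 lie above all 10 old livers with a young partner, and the highest O-O point of Cd79a, Clec7a, Oasl2 and Col5a2 is O-O 4.

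Some transcripts of B cells and macrophages fell. Of 16 listed B and plasma cell markers 4 were tested, and 3 of these fell. Of 20 listed monocyte and lipid-associated macrophage markers 7 were tested, and 2 of these fell. Among the 7, 4 were lower and 1 higher with both kinds of partner, 2 had opposite directions, and the median was -0.16. The untested members were absent or too low for the filter, so these shares do not describe the whole lists. Cd79a, a member of the signalling pair of the B cell receptor, was 2.01, 1.66, 2.10, 8.60 and 2.43 RPKM in O-O, 1.24, 1.36, 1.16, 0.942 and 1.43 with WT partners, and 0.755, 0.572, 0.754, 0.229 and 1.13 with Het partners. All 10 lay below the O-O range (-1.22 ± 0.23, limma adjusted p = 0.034; -0.85 and 0.0678 without O-O 4). Its partner Cd79b and the B cell tetraspanin Cd37 fell by 1.09 and by 0.87 on the log2 scale. Without O-O 4 their differences were -0.68 and -0.57 (limma adjusted p = 0.176 and 0.157).

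Clec7a, a receptor for fungal glucans on myeloid cells, was 4.79, 3.66, 3.84, 15 and 4.15 RPKM in O-O, 1.83, 5.35, 1.75, 1.79 and 1.69 with WT partners, and 1.24, 1.65, 1.43, 0.618 and 1.97 with Het partners. WT partner liver 2 lay inside the O-O range, and the other 9 below it (-1.39 ± 0.28, limma adjusted p = 0.034; -1.04 and 0.157 without O-O 4). Lgals3, a macrophage galectin, was 6.47 ± 3.21, 4.63 ± 2.01 and 2.13 ± 0.532. Of 20 tested Kupffer cell markers 0 passed in the average (14 at an unadjusted p under 0.05), with a median of -0.59, and 14 fell with Het partners.

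The summed deposited RPKM, without scaling, of Kupffer and sinusoidal endothelial markers were lower mainly with Het partners. Sums of B and plasma cell markers were low with both kinds of partner and overlapped the O-O range. Kupffer markers summed to 343 to 840 RPKM in O-O, 327 to 555 with WT partners and 112 to 301 with Het partners, B and plasma cell markers to 9.30 to 49.6, 7.41 to 10.5 and 3.33 to 11.5, and sinusoidal endothelial markers to 139 to 151, 130 to 169 and 48.6 to 119. The Kupffer and endothelial sums with Het partners lay below the O-O range, and those with WT partners overlapped it. The part of cell composition in any of the results was not tested. Antigen presentation by MHC class II, the work of macrophages, dendritic cells and B cells, had the lowest median (-1.24): 0 of 7 tested members passed in the average (all 7 at an unadjusted p under 0.05), and 7 fell with Het partners. H2-Aa was 44.7 ± 41.6 RPKM in O-O, with 118 in O-O 4, and 22.9 ± 12.8 and 9.70 ± 4.19 with WT and Het partners (limma adjusted p = 0.0608). Ctss, the cathepsin that trims the invariant chain, was 50.1 ± 22.3, 38.9 ± 13.5 and 17.6 ± 5.56 (limma adjusted p = 0.0523).

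Of 35 tested interferon-stimulated genes, 6 fell, 0 rose and 29 did not pass, with a median of -0.52, and 31 were lower with both partners. With Het partners 32 fell, with WT partners 0 (limma; 2 at an unadjusted p under 0.05), and Het differed from WT for 28. After scaling, 23 fell with Het partners and Het differed from WT for 12. Oasl2, an oligoadenylate synthetase-like gene, was 1.12, 1.34, 0.732, 2.41 and 2.05 RPKM in O-O, 0.834, 1.39, 0.874, 0.757 and 0.898 with WT partners, and 0.333, 0.489, 0.412, 0.296 and 0.691 with Het partners. The WT partner values lay inside the O-O range and the Het partner values below it (-0.74 ± 0.15, limma adjusted p = 0.034). Ddx58, the RIG-I sensor of viral RNA, was 4.42 ± 0.151, 3.66 ± 0.473 and 2.97 ± 0.466.

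Ifit3, an antiviral tetratricopeptide protein, was 8.11 ± 3.32 RPKM in O-O, 5.63 ± 2.44 with WT and 2.75 ± 0.893 with Het partners (-0.92 ± 0.24, limma adjusted p = 0.0475). Oas1a was 2.85 ± 1.5, 2.05 ± 0.897 and 0.785 ± 0.109 (limma adjusted p = 0.0493). The RefSeq promoter of Ifit3 (GRCm38.p6, chr19:34583279-34583578, plus strand) is shown as the called member with the most matches together with Ifit1, and its matches to the letters GAAANNGAA, an interferon response element core, on either strand are in capitals.
Ifit3: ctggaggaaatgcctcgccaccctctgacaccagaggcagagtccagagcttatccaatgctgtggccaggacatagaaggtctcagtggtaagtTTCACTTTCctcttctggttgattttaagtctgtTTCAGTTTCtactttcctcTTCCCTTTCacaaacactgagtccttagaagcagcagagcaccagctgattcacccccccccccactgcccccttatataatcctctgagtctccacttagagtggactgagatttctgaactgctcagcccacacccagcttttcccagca
The 3 matches start at -155, -121 and -102 and lie on the opposite strand. Of 26 tested interferon genes with a window, 17 held the letters (65.4%), among them 4 of the 6 that fell, against 9.8% of 27025 genes.

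Of 21 tested members of the cytokine and chemokine list, which also holds the adhesion molecule Icam1, 4 fell and 0 rose: Il1rn, Icam1, Ccl6 and Tgfb1. Icam1, which lets leukocytes adhere to endothelium, was 4.45 ± 1.87, 3.18 ± 1.01 and 1.83 ± 0.281 RPKM. Ccl6, a macrophage chemokine, was 7.48 ± 4.00, 4.97 ± 0.547 and 2.64 ± 0.846, and Tgfb1, a driver of fibrosis, 2.23 ± 0.929, 1.48 ± 0.298 and 1.05 ± 0.294. Of 26 acute phase genes, Saa3, an inducible serum amyloid A, fell (4.75 ± 2.17, 3.42 ± 1.70 and 1.26 ± 0.221).

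Of 20 tested stellate cell and fibroblast markers, 5 fell and 0 rose (median -0.57; 18 fell with Het partners, 0 with WT partners, where 2 had an unadjusted p under 0.05), and of 19 collagen and matrix genes 6 fell; the lists share members. Col5a2, a chain of fibrillar type V collagen, was 4.94, 0.378, 1.42, 7.22 and 1.89 RPKM in O-O, 0.417, 3.13, 0.373, 0.294 and 0.290 with WT partners, and 0.455, 0.151, 0.164, 0.123 and 0.201 with Het partners. O-O 2 lay low and WT partner liver 2 high, so the groups overlapped (-1.64 ± 0.36, limma adjusted p = 0.0412).

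Col1a1, the main chain of type I collagen, was 1.48 ± 0.974, 0.912 ± 0.565 and 0.309 ± 0.202 RPKM. Col6a1, a microfibrillar collagen, was 2.82 ± 0.487, 2.02 ± 0.482 and 1.27 ± 0.518, and Bgn, the proteoglycan biglycan, 20.8 ± 2.43, 17.0 ± 3.88 and 9.90 ± 4.03. For these 3 genes Het and WT partners differed (Col1a1 -0.76, Col6a1 -0.54 and Bgn -0.82; Col6a1 no longer after scaling, limma adjusted p = 0.0589). Stellate markers summed to 214 to 290 RPKM in O-O, 184 to 318 with WT and 75.7 to 178 with Het partners. Of 22 lysosomal genes 2 fell, Ctsb (135 ± 14.6, 118 ± 14.6 and 93.2 ± 14.7) and Cd63 (6.81 ± 3.13, 4.92 ± 1.94 and 2.61 ± 0.738), a protease and a membrane protein of lysosomes.

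Some gene lists differed between the partner groups. Arntl, which encodes the clock activator BMAL1, was 0.378, 0.247, 0.351, 0.25 and 0.209 RPKM in O-O, 1.71, 1.38, 2.73, 1.77 and 1.09 with WT partners, and 0.125, 0.140, 0.0469, 0.0689 and 0.470 with Het partners. The averaged 0.61 ± 0.14 (limma adjusted p = 0.0438) came from 1.47 with WT and -0.26 with Het partners. Per3, a clock repressor, was 3.76 ± 0.842, 0.970 ± 0.523 and 4.00 ± 1.18, so its average of -0.76 came from -1.58 with WT and 0.06 with Het partners. Of 19 tested clock genes, 2 rose and 8 fell with WT partners, 0 passed with Het partners (limma; 1 at an unadjusted p under 0.05), and Het differed from WT for 16 (13 higher, 3 lower). In the young livers Arntl was 0.971 ± 0.199 (WT) and 0.163 ± 0.104 (Het) RPKM, and Per3 1.26 ± 0.346 and 4.08 ± 1.32. Both animals of WT and Het pairs thus differed in the same direction for these genes. The hour of tissue collection is not given in the labels, and its part was not tested.

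Of 25 tested genes of endoplasmic reticulum chaperones and the unfolded protein response, Manf among them, 0 passed in the average (3 at an unadjusted p under 0.05), 4 rose with WT partners and 2 fell with Het partners (none, 0 of 25, after scaling). Het differed from WT for 20 (1 higher, 19 lower), and after scaling 1 was higher and 14 lower. Over all tested genes, 29.6% were lower with Het than with WT partners (9.53% after scaling). Hspa5, the chaperone BiP, was 70.3 ± 16.6, 127 ± 9.73 and 60.9 ± 10.9 RPKM, and Hyou1 8.98 ± 3.40, 18.8 ± 3.22 and 8.90 ± 2.61. Over 12 tested female-biased genes the median was -0.84 with WT and 0.82 with Het partners, with 0 calls in the average (1 at an unadjusted p under 0.05), and 8 differed between partners. Of 17 heat shock genes 0 passed (0 at an unadjusted p under 0.05), and 12 were lower with Het than with WT partners (9 after scaling).

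Over all tested genes, 8 passed with both partners in opposite directions, against 8 in the same direction. Coq10b, a coenzyme Q-binding protein, fell from 4.98 ± 0.816 RPKM in O-O to 2.77 ± 0.472 with WT partners and rose to 8.62 ± 1.51 with Het partners. Its 3 groups did not overlap, which its choice for opposite partner differences favoured. How many tested genes separate in this way was not counted. Chka, choline kinase, was 1.91 ± 0.484, 4.12 ± 1.05 and 1.09 ± 0.484, Ypel2 1.68 ± 0.209, 3.57 ± 0.534 and 1.06 ± 0.636, and Sphk2, sphingosine kinase, 7.42 ± 0.983, 11.1 ± 2.30 and 4.82 ± 0.784. Kifc3, a kinesin, was 2.86 ± 0.282, 3.87 ± 0.492 and 2.08 ± 0.309, and Caprin1, an RNA-binding protein, 11.3 ± 1.56, 16.0 ± 1.89 and 8.75 ± 0.825. After scaling, Chka, Ypel2, Kifc3 and Caprin1 no longer passed with Het partners (limma adjusted p = 0.109, 0.126, 0.0751 and 0.21). The means of the young WT and young Het livers differed in the same direction. They were 3.80 and 7.99 RPKM for Coq10b, 2.70 and 0.966 for Chka, and 2.73 and 1.08 for Ypel2. Sphk2 had 9.57 and 6.31, Kifc3 3.04 and 2.73, and Caprin1 12.5 and 8.72.

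**Figure D4:**
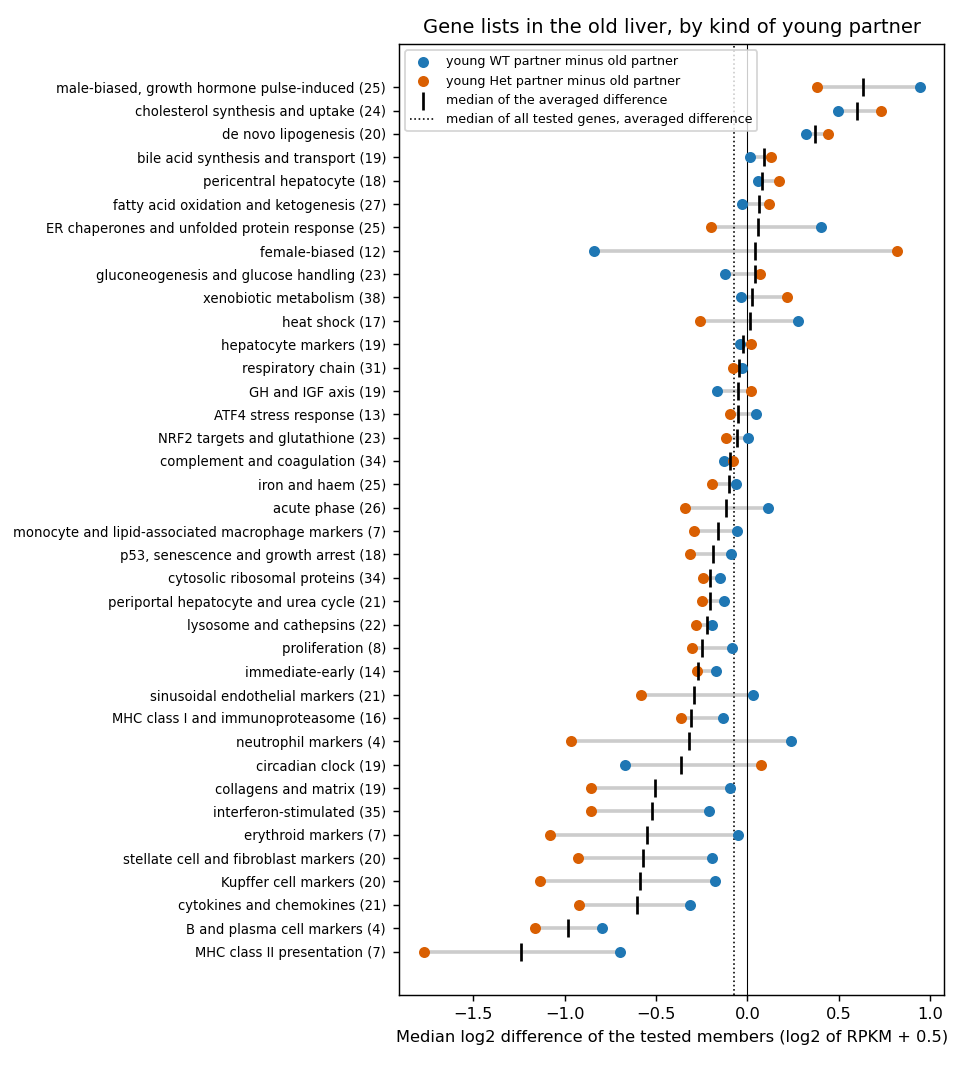
Median log2(RPKM + 0.5) difference from O-O over the tested members of each list (number in brackets) with young WT partners (blue) and young Het partners (orange); the black tick is the median of the averaged difference and the dotted line that of all tested genes. Cholesterol synthesis lies to the right for both partners (0.49 and 0.73), MHC class II to the left (-0.70 and -1.77), and the clock, chaperone and female-biased lists have 1 point on each side of 0.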

How the data were processed

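RNA from flash frozen liver was sequenced from stranded mRNA libraries, per the labels' protocols. The deposited table holds RPKM computed by the authors; per the submitters' processing notes, the aligner was STAR 2.4.2a, the genome mm10 and the counting tool HTSeq. The total behind the RPKM, the strand setting and the handling of multi-mapping reads are not given in the sources used here. Of 60354 rows, 24132 held values; Plin2 (infinite) and 24 rows named by a number were left out. Depth was recovered from the steps of low RPKM values.

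The 9372 genes that reached 1 RPKM in 5 or more of the 25 libraries were kept. Among the genes named, Etv5, Il1rn, Oasl2, Col5a2, Col1a1 and Cd37 met this filter only with the O-O livers counted, which favoured a fall. Arntl met it only with the WT partner livers counted, which favoured a rise there. Log2(RPKM + 0.5) was fitted with limma 3.58.1 (R 4.3.3, mean-variance trend) in 1 model of 5 groups with 20 residual degrees of freedom, with Benjamini-Hochberg adjustment. The fit was also run on simulated data with independent libraries and, for each gene, the same spread in every group. Those data lacked the outlying livers and the shifts of scale seen here, so that run does not check these calls. Manf was also tested by exact permutation over 3003 assignments. The labels do not say that the livers of a group come from separate pairs, so p-values measure the spread between these livers. Gene positions are from GENCODE M21 and promoters from RefSeq GRCm38.p6. Figures were drawn with matplotlib 3.10.9 in Python 3.11.15.

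Members and lists were chosen with earlier results of these data known. Named were Manf, genes passing as deposited and after scaling with at least 1 RPKM (none qualified; Etv5 passed both at a lower mean), 6 genes with opposite partner differences, and up to 4 members with the lowest p of each list described. Further genes were named after their values were seen: all that rose, those that passed with both partners, and remaining called members of some lists. Some further genes are not reported here. Tried as alternatives were 2 other constants, 2 other filters, scaling by median of ratios, a model of the old livers alone, library weights, the replicate block, the partner groups as 1 group and single omissions.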

Additional observations from a re-analysis of the deposited data

Results flagged for a closer look

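Within a group of 5 livers, a highest or lowest value was marked when its gap to the nearest other exceeded 0.71 of the range. Of 174 groups of 5 (58 genes in 3 groups), 38 were marked (21.8%). The nominal rate of this cutoff is about 1 in 20 for normally distributed values. That rate was not measured for these RPKM or for genes chosen from these data, so the 2 are not directly comparable. In O-O 2, the RPKM that stood apart were those of Mup1 at 17.2, Mup11 at 59.3, Mup19 at 6.28, Mup12 at 19.6, Dio1 at 37.8 and Ddx58 at 4.69. In O-O 3, the RPKM that stood apart were those of Cyp51 at 6.16, Nsdhl at 3.71 and Rdh11 at 4.65. In O-O 4, the RPKM that stood apart were those of Cd79a at 8.6, Cd79b at 9.49, Cd37 at 4.84, Clec7a at 15, Icam1 at 7.69, Ccl6 at 14.4, H2-Aa at 118, Col1a1 at 3.17 and Cd63 at 12.3. In Het partner liver 1, the RPKM that stood apart was that of Col5a2 at 0.455. In Het partner liver 2, the RPKM that stood apart were those of Hmgcs1 at 149, Mvd at 17.1, Pmvk at 43.1 and Idi1 at 32.2. In Het partner liver 4, the RPKM that stood apart were those of Lgals3 at 1.22, Saa3 at 1.63 and Ctss at 7.72. In Het partner liver 5, the RPKM that stood apart were those of Arntl at 0.47, Ypel2 at 2.18 and Sphk2 at 6.18. In WT partner liver 1, the RPKM that stood apart were those of Mup1 at 85.3 and Mup11 at 302. In WT partner liver 2, the RPKM that stood apart were those of Clec7a at 5.35, Oasl2 at 1.39, Oas1a at 3.63, Col5a2 at 3.13, Ctsb at 143 and Cd63 at 8.24. In WT partner liver 3, the RPKM that stood apart was that of Amdhd2 at 4.72.

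For 28 of the 58 genes the response differed between the partner groups by limma's test of Het minus WT partner, given as log2 differences, where 32.7% of all tested genes did. The 28 include the 6 genes named for opposite partner differences (Coq10b, Chka, Ypel2, Sphk2, Kifc3 and Caprin1), whose difference the choice had fixed; of the other 52 genes, 22 differed. After median-of-ratios scaling, 22 of the 28 still passed, and Etv5, Ddx58, Ifit3, Icam1, Col6a1 and Ctsb did not. They were higher with Het partners for Tm7sf2 (0.47), Amdhd2 (0.25), Per3 (1.64) and Coq10b (1.47). They were lower with Het partners for Manf (-1.27), Etv5 (-0.31), Lgals3 (-0.92), Oasl2 (-0.62), Ddx58 (-0.27), Ifit3 (-0.88), Oas1a (-0.94), Icam1 (-0.62), Ccl6 (-0.85), Saa3 (-1.05), Ctss (-1.14), Col6a1 (-0.54), Col1a1 (-0.76), Bgn (-0.82), Ctsb (-0.35), Cd63 (-0.78), Arntl (-1.73), Hspa5 (-1.07), Hyou1 (-1.07), Chka (-1.55), Ypel2 (-1.45), Sphk2 (-1.11), Kifc3 (-0.76) and Caprin1 (-0.83).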

How the results depend on the processing

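The alternatives gave the following numbers of genes past an adjusted p of 0.05, against 19 higher and 203 lower. A constant of 0.1 gave 132 lower, 144 of the calls with the same direction for both partners. With no filter on low values 345 were lower, 358 had the same direction, 48 passed with WT partners and 3402 with Het partners. A filter of 5 RPKM left 1 higher and 8 lower, 9 in the same direction, 816 with Het partners and 1444 between partners. Median-of-ratios scaling left 0 higher and 1 lower (1747 genes at an unadjusted p under 0.05, limma), 1 in the same direction, 175 with WT partners, 935 with Het partners and 1730 between partners. A model of the 15 old libraries alone gave 0 higher and 1 lower, 1 in the same direction, 70 with WT partners and 4 genes with both; taking the 10 livers with young partners as 1 group gave 0 and 1. Library weights gave 25 genes with both partners and 317 with WT partners. With the replicate number as a block, 0 were higher and 2 lower, both with the same direction (2 genes). The labels do not say whether the numbers pair the animals. Between the old groups, same-numbered livers deviated together (r over 0.1) in 3 of 15 pairs of libraries (median r -0.059). Old livers were not compared with young livers in this way, so these values cannot tell whether partners share a number.

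Omitting 1 library, with or without scaling, gave 0 to 166 higher, 0 to 725 lower, 0 to 796 in the same direction, 0 to 67 with both partners, 12 to 330 with WT partners, 326 to 2793 with Het partners and 989 to 3486 between partners. Without O-O 4 and Het partner liver 4, a choice made after seeing the data, as were the scaled omissions, 0 were called (1081 at an unadjusted p under 0.05, limma). Manf ranged from 0.22 to 0.55. The 222 genes kept their sign in every setting that tested them (82 at 5 RPKM). The cause of these changes was not tested. About 1 RPKM and below, few reads limit the precision.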
